A study of Mus musculus with 4 samples.

Results

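The epidermal growth factor (EGF) receptor family, also called the ErbB family, was examined in sorted mouse bone marrow mesenchymal stromal cells (MSCs). The rule names the members and uses no measured value: the 4 receptors Egfr, Erbb2, Erbb3 and Erbb4, and the 6 ligands Hbegf, Areg, Ereg, Tgfa, Btc and Nrg1. They make up 10 of the 56980 genes in the deposited count table. The symbols found 9 of them, and Nrg1, whose symbol is listed there with a gene identifier attached, was taken by its identifier ENSMUSG00000062991. A further identifier listed under Nrg1 had 0 counts in every library.

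The study asked how macrophages of different developmental origin shape the stem cell niche, and the MSC libraries provided the niche side of a search for ligand and receptor pairs. All 4 libraries belong to 1 group: wild-type mice, all male and 14 weeks old, of a C57BL/6J stock kept inbred in-house for 30 years. From the femurs of each mouse, 100 cells were sorted that stained for CD51 and PDGFRa and were CD45- Ter119- CD31- Sca1-, and polyA RNA was turned into full-length cDNA, amplified by PCR and sequenced. Each library comes from a separate mouse, so that the spread below is the spread between mice together with that of the small cell input and of amplification.

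ErbB receptors are membrane tyrosine kinases that signal as pairs. EGFR binds EGF, TGF-alpha, amphiregulin (Areg) and other ligands, ERBB2 has no known ligand of its own and serves as a partner, ERBB3 has a weak kinase and binds neuregulins, and ERBB4 binds neuregulins and some of the EGFR ligands. Ligands are made as membrane-bound precursors and released by ADAM proteases, and in bone EGFR signaling is known for keeping osteoprogenitors dividing and delaying their maturation.

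The libraries held between 22738604 and 43545349 counts on genes, and between 16109 and 18907 genes had at least 1 count, with the lowest number in mouse 2. Counts were converted to TPM, a level per length that divides a count by the length of the exons of the gene and scales each library to the same sum. The gene of the sort antigen PDGFRa (Pdgfra) reached 39.8 TPM ± 7.29 (SD, n = 4). All 6 MSC niche markers (Cxcl12, Lepr, Kitl, Pdgfra, Foxc1 and Ebf3) had a median above 1 TPM. Their summed level was 1086, 4681, 2400 and 1272 TPM in mice 1, 2, 3 and 4. Markers of osteoblasts (Alpl, Bglap, Ibsp and Sp7) were also abundant, with sums between 77792 and 168024 TPM. Bglap alone made up most of each sum, with 55668 to 156730 TPM, whereas Sp7 had 151 to 339 TPM and Alpl 550 to 963 TPM. Of the markers of cells outside the gate, the endothelial sum (Cdh5, Pecam1, Kdr and Emcn) stayed between 0.0465 and 0.235 TPM, and the mast cell and basophil genes Cpa3, Mcpt8, Ms4a2 and Fcer1a were at 0 in every library. Blood transcripts were not absent, and the hemoglobin gene Hbb-bs had 26390, 119, 8575 and 1063 counts and Hba-a1 25033, 65, 9037 and 1142 counts in mice 1 to 4, although Ter119+ cells were gated out. The neutrophil sum (S100a8, S100a9, Ly6g and Mpo) lay between 4.09 and 19.7 TPM, with Ly6g at 0 in every library, and the sum of the T and innate lymphoid list between 0 and 2.65 TPM. The B cell gene Cd79a had 22 counts in mouse 4 and 0 in the others. In bulk libraries, fewer cells of a type and less RNA per cell cannot be told apart.

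All 4 MSC libraries held transcripts of Egfr and Erbb2. The ligand Hbegf had more than 3 counts in mice 1, 3 and 4, and Tgfa in mouse 1 and, with 9 counts, in mouse 3. Few or no counts fell on the other 6 members. A median above 1 TPM, the cutoff that the study used for ligands and receptors, was reached by 3 of the 10 members: Erbb2 with a median of 5.13 TPM, Hbegf with 2.38 TPM and Egfr with 2.26 TPM. Of all 52125 genes with a known length, 22.9% passed the same cutoff, and of the 21922 protein-coding genes 44.2% did. More than 3 counts in every library were found for 2 members, Egfr and Erbb2, where 17.6% of all listed genes and 37% of protein-coding genes met this criterion. Areg, Btc and Erbb4 had 0 counts in all 4 libraries, as did 29.4% of the protein-coding genes. The shares of members past these criteria, 3 and 2 of 10, were below those of protein-coding genes and above those of all genes. With 10 members these gaps amount to few genes, and whether they exceed chance was not tested. The median over the 4 receptors was 1.14 TPM and that over the 6 ligands 0 TPM.

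**Figure D1:**
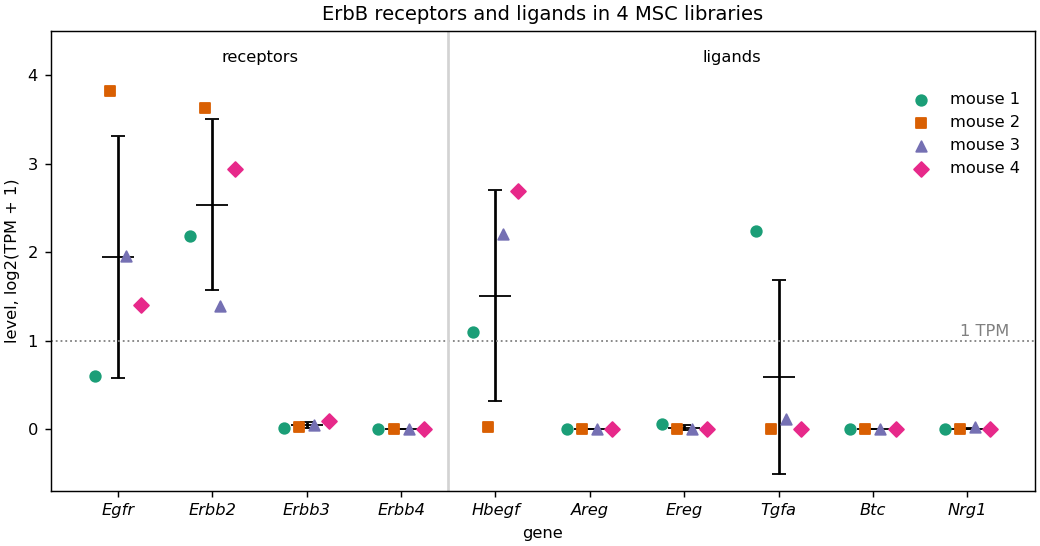
Level of each receptor (left) and ligand (right) as log2(TPM + 1) in the libraries of mice 1 to 4, with 1 symbol per mouse. Horizontal bars give the mean and error bars 1 SD (n = 4), and the dotted line marks 1 TPM. Egfr, Erbb2 and Hbegf lie mostly above the line and spread over more than 2 log2 units, Tgfa is above it in mouse 1 alone, and the other members lie close to 0.

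Sequences before the start sites were compared for the receptors that were detected in every mouse and for a ligand that was not detected in any. RefSeq promoters of 300 bases (GRCm38.p6, 250 before and 50 after the start site) were found for 6 of the 10 members. The 250 bases upstream of Egfr (chr11:16751953-16752202, plus strand), Erbb2 (chr11:98412234-98412483, plus strand) and Areg (chr5:91139349-91139598, plus strand) are shown, with capitals for matches to the motifs searched on both strands.
Egfr: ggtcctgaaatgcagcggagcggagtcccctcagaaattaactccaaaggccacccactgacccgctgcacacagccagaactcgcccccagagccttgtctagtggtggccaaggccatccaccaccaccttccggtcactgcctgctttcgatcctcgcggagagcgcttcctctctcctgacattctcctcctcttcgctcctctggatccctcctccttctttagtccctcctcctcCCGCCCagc
Erbb2: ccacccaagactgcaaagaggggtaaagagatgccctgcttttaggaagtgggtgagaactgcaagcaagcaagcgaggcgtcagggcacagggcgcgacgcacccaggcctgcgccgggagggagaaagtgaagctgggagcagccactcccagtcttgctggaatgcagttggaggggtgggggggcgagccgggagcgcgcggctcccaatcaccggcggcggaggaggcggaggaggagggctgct
Areg: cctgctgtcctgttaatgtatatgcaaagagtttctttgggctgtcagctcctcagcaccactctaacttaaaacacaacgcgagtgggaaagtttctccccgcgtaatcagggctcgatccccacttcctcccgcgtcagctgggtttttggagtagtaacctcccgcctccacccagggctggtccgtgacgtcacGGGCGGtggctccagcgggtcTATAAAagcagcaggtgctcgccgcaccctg
All 3 stretches hold many CG dinucleotides, with 11 in Egfr, 16 in Erbb2 and 15 in Areg. Over the full 300 bases, the numbers were 15 in Egfr, 21 in Erbb2, 17 in Erbb4, 21 in Areg, 24 in Tgfa and 5 in Btc, where the median of all 32851 promoters was 7. The GC box core GGGCGG, present in 35.7% of all promoters, matched once in Egfr from base -9 to -4, on the reverse strand. Areg carries it from -52 to -47 and from 38 to 43, and Tgfa from -126 to -121 and from -15 to -10. The TATA box TATAAA, present in 13.6% of promoters, matched in Areg alone among the 6, from -31 to -26. The AP-1 motif TGANTCA, found in 7.81% of promoters, matched in none of the 6. Egfr, which was detected, and Areg, which was not, thus both had a GC box core and more CG dinucleotides than the median. Of all promoters, 65.4% had fewer than Egfr and 75.2% fewer than Areg. Erbb2, also detected, and Erbb4 and Btc, not detected, had no match to that core. Btc also had fewer CG dinucleotides than the median.

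Among the receptors, Erbb2 and Egfr accounted for nearly all transcripts, and their order changed between mice. Egfr (ENSMUSG00000020122; GRCm38 chr11:16752203-16918158, plus strand, 28 exons in its longest transcript) encodes the receptor of EGF itself. It had 103, 1656, 563 and 192 counts, or 0.517, 13.1, 2.88 and 1.64 TPM, in mice 1, 2, 3 and 4. Its mean was 4.54 TPM ± 5.81 (SD, n = 4). Mouse 2 stood above the others and mouse 1 fell below 1 TPM. The mice varied by 128% (coefficient of variation), against 4.16% from counting error alone. In mouse 1 the 95% Poisson interval was 0.422 to 0.627 TPM and in mouse 2 it was 12.5 to 13.8 TPM. These intervals cover counting error only.

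Erbb2 (ENSMUSG00000062312; chr11:98412470-98437716, plus strand, 27 exons) encodes the partner receptor without a ligand of its own. It had 326, 658, 146 and 361 counts, or 3.56, 11.4, 1.62 and 6.71 TPM, in mice 1 to 4. Its mean was 5.81 TPM ± 4.25 (SD, n = 4), and it was the only member above 1 TPM in all 4 mice. As for Egfr, mouse 2 was highest, but here mouse 3 was lowest. The spread between mice (73.1%) again exceeded the 5.40% from counting error. The exons of Erbb2 share 9 bases, 0.173% of their length, with Mien1 on the opposite strand, and counting did not use strand.

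Erbb3 (ENSMUSG00000018166; chr10:128567523-128589652, minus strand) had 1, 1, 3 and 4 counts, or 0.00945, 0.0149, 0.0289 and 0.0643 TPM, in mice 1 to 4. It passed 3 counts in mouse 4 alone. Erbb4 (ENSMUSG00000062209; chr1:68032186-69108059, minus strand) had 0 counts, and at its length 3 counts correspond to between 0.0138 and 0.0235 TPM. The neuregulin receptors were therefore at or near the limit of detection at this depth.

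The 4 receptors together summed to 4.08, 24.5, 4.53 and 8.41 TPM in mice 1, 2, 3 and 4. Egfr made up 12.7% of this sum in mouse 1, 53.6% in mouse 2, 63.5% in mouse 3 and 19.5% in mouse 4, and Erbb2 nearly all of the rest. The ratio of Egfr to Erbb2 in TPM ran from 0.145 in mouse 1 to 1.77 in mouse 3. Egfr was the higher of the pair in mice 2 and 3 and Erbb2 in mice 1 and 4.

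Differences within a library were tested on the log2(TPM + 1) scale, by sign flips (an exact permutation test, two-sided) with Benjamini-Hochberg adjustment over 8 comparisons. With 4 mice the smallest p this test can give is 0.125, so that none could reach 0.05. Egfr minus Erbb2 was -0.59 ± 1.13 (SD, n = 4; exact p = 0.5, adjusted 0.5), less than its spread. Egfr was higher than Erbb3 in 4 of 4 mice, by 1.90 ± 1.38 (exact p = 0.125, adjusted 0.167), and higher than Erbb4 in 4 of 4, by 1.94 ± 1.37 (exact p = 0.125, adjusted 0.167). Erbb4 had 0 counts, so that the latter difference is the level of Egfr itself and could not have been negative. By mean level the order was Erbb2, Egfr, Erbb3 and Erbb4, in which the step from Erbb2 to Egfr was smaller than its SD and the later steps were larger. The step from Erbb3 to Erbb4 was only 0.04 ± 0.03 and rests on 9 counts in all. Without correction for gene length the difference between Egfr and Erbb2 changes sign, to 0.20 ± 1.51. The exons of Egfr span 11326 bases and those of Erbb2 5210.

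**Figure D2:**
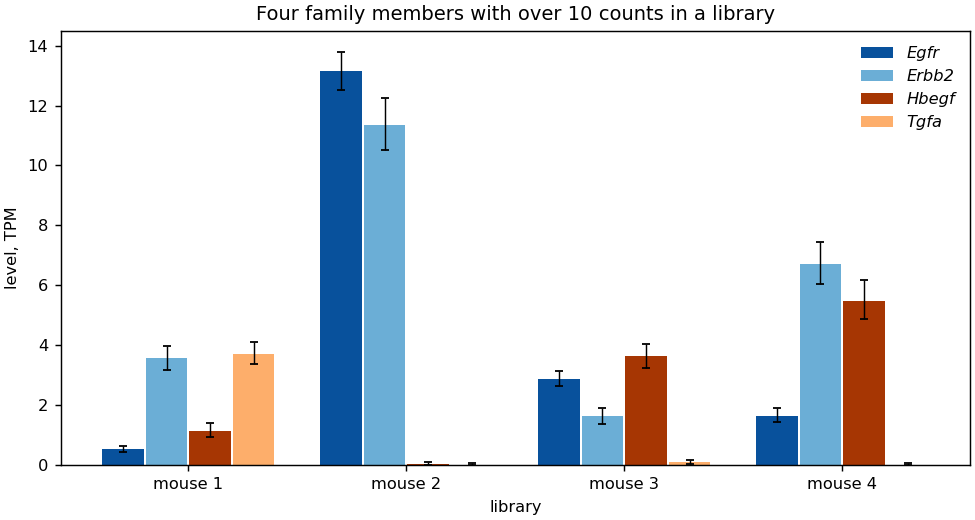
TPM of Egfr, Erbb2, Hbegf and Tgfa in each mouse (bars, linear axis from 0), with 95% Poisson intervals of the counts as error bars. The tallest bars are Egfr and Erbb2 in mouse 2, at 13.1 and 11.4 TPM, where Hbegf is at 0.0186 TPM, and Tgfa has a tall bar in mouse 1 alone, at 3.71 TPM.

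Mouse 2 held the highest levels of both receptors and the lowest level of Hbegf. In the same library the MSC niche markers summed to 4681 TPM, against 1086 to 2400 TPM in the others, and the markers of adipocytes (Adipoq, Cebpa, Lpl and Pparg) to 962 TPM, against 199 to 439 TPM. Mouse 2 also lacked the most genes: 509 genes had at most 3 counts there and at least 100 counts in each other library, where the corresponding numbers were 75, 27 and 283 for mice 1, 3 and 4. The part of these differences in the receptor and ligand levels was not tested. Without mouse 2, the mean of Egfr was 1.68 TPM and that of Erbb2 3.96 TPM.

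Erbb2 lay in the middle and Egfr in the lower part of the receptor tyrosine kinases above 1 TPM. Of 58 such genes ranked by median TPM, 19 passed 1 TPM, among them 2 of the 4 ErbB receptors and 17 of the 54 others. Fgfr1, a fibroblast growth factor receptor, ranked highest with 64.6 TPM ± 20.7 (SD, n = 4), followed by the platelet-derived growth factor receptors Pdgfrb and Pdgfra, the latter being the gene of a sort antigen. Erbb2 ranked 10, between Axl with a median of 5.54 TPM and Fgfr3 with 4.33 TPM. Egfr ranked 15, between Insr, the insulin receptor, with a median of 2.38 TPM and the collagen receptor gene Ddr1 with 1.37 TPM. The ranks of Egfr within single libraries were 17, 8, 13 and 18 in mice 1 to 4, and those of Erbb2 were 12, 9, 16 and 8. These ranges cross, and neither receptor held a fixed place. Erbb3 ranked 30, and Erbb4 was among the 15 kinases at 0 in every library.

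**Figure D3:**
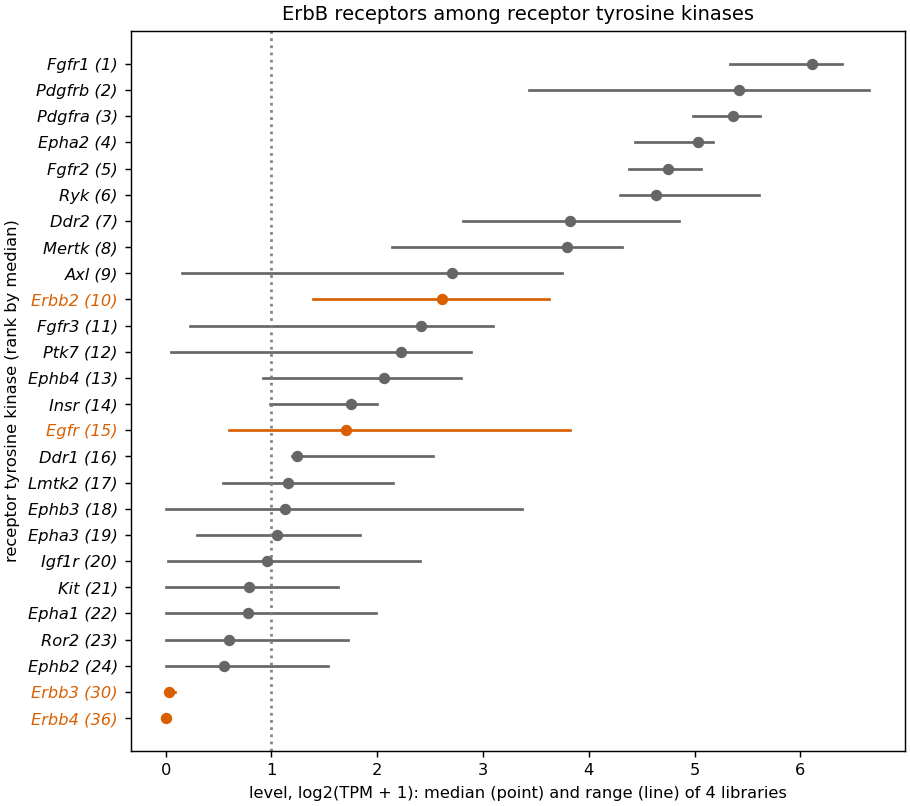
Median (point) and range over the 4 libraries (line) of receptor tyrosine kinases as log2(TPM + 1), in order of median TPM with the rank in brackets. ErbB receptors are in orange, and the dotted line marks 1 TPM. The panel holds the 24 highest genes and, in addition, Erbb3 and Erbb4. The line of Egfr is among the longer ones and crosses those of its neighbours.

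Of the 6 ligands, Hbegf was the only one with a median above 1 TPM, and 4 had a median of 0. Hbegf (ENSMUSG00000024486; chr18:36504927-36515805, minus strand) encodes heparin-binding EGF-like growth factor, a ligand of EGFR and ERBB4. It had 97, 1, 302 and 274 counts, or 1.14, 0.0186, 3.62 and 5.49 TPM, in mice 1, 2, 3 and 4, with a mean of 2.56 TPM ± 2.46 (SD, n = 4). Hbegf was thus present in 3 mice and at a single count in mouse 2. There, 31.4% of the protein-coding genes with a mean of 1 to 10 TPM over the other 3 libraries also had at most 3 counts. That share was 16.5%, 12.1% and 23.2% for mice 1, 3 and 4. A mean in this range can come from 1 library, so that the shares can include genes absent from several mice. The mean of Hbegf was 3.41 TPM without mouse 2 and 1.59 TPM without mouse 4. Of the macrophage markers, Adgre1, Csf1r and C1qa were at 0 in every library, so that the macrophage sum was Cd68 alone. It was 0.497, 0, 6.63 and 0.385 TPM in mice 1 to 4. The sum was at 0 in mouse 2, where Hbegf was lowest, and highest in mouse 3, whereas Hbegf was highest in mouse 4. The part of such cells in the Hbegf level was not tested.

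Tgfa (ENSMUSG00000029999; chr6:86195223-86275719, plus strand), the gene of the EGFR ligand TGF-alpha, had 424, 0, 9 and 0 counts, or 3.71, 0, 0.0803 and 0 TPM, in mice 1 to 4. Its mean of 0.948 TPM ± 1.84 (SD, n = 4) rests on mouse 1, without which it was 0.0268 TPM. Mouse 1 was also highest in the chondrocyte sum (Acan, Col9a1, Col11a2 and Matn3), with 352 TPM against 219 to 229 TPM, and in the megakaryocyte sum, with 7.95 TPM against 0 to 0.267 TPM. Col11a2 made up 345 TPM of the chondrocyte sum of mouse 1, whereas Col9a1 was highest in mouse 3, with 12.2 TPM against 1.82 TPM in mouse 1. The hemoglobin genes were highest in mouse 1 too, where Hbb-bs reached 1953 TPM, against 13.9 to 646 TPM in the others. Of the 4 megakaryocyte markers, Gp9 held 122 of the 123 counts of mouse 1, Pf4 held 1, and Itga2b and Ppbp were at 0 there. The part of these cells in the Tgfa level was not tested.

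The ligands Ereg, Nrg1, Areg and Btc were at the limit of detection. Ereg (ENSMUSG00000029377; chr5:91074622-91093646, plus strand), the epiregulin gene, had 3 counts in mouse 1 and 0 in the others. Nrg1 (chr8:31814551-32884029, minus strand), the neuregulin that binds ERBB3 and ERBB4, had 2 counts in mouse 3 and 0 in the others. The genes of amphiregulin, Areg (ENSMUSG00000029378; chr5:91139599-91148432, plus strand), and betacellulin, Btc (ENSMUSG00000082361; chr5:91357261-91402994, minus strand), had none. In TPM, 3 counts correspond to between 0.140 and 0.239 for Areg, the shortest member, and to between 0.0377 and 0.0642 for Btc. Levels below these limits could not be seen at this depth. The limits cover counting error only, and levels above them could be missed too. Some protein-coding genes had a mean of 1 to 10 TPM over the other libraries. Of these, 12.1% in mouse 3 to 31.4% in mouse 2 had at most 3 counts. Genes absent from several mice can be among them.

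The ligand sum was 4.90, 0.0186, 3.71 and 5.49 TPM in mice 1 to 4, and it came from Tgfa and Hbegf in mouse 1 and nearly all from Hbegf in the others. Hbegf was higher than Areg and than Btc in 4 of 4 mice, by 1.51 ± 1.19 on the log2(TPM + 1) scale each (exact permutation p = 0.125, adjusted 0.167). Areg and Btc had 0 counts, so that their differences are the level of Hbegf itself and could not have been negative. Hbegf was higher than Nrg1 by 1.50 ± 1.19 and than Ereg by 1.49 ± 1.20, in 4 of 4 mice each and with the same p. In mouse 2 these differences were 0.03 each and rest on the single Hbegf count. Nrg1 had 0 counts in mice 1, 2 and 4, and Ereg in mice 2, 3 and 4. In those mice the differences could not have been negative either. Hbegf minus Tgfa was 0.92 ± 1.79 (higher in 3 of 4 mice, exact permutation p = 0.375, adjusted 0.429), which is within the spread. Tgfa had 0 counts in mice 2 and 4, where Hbegf minus Tgfa could not have been negative. Without mouse 1 the latter difference was 1.61, and without mouse 4 it was 0.33. The ligands ran, by mean level, from Hbegf through Tgfa, Ereg and Nrg1 to Areg and Btc, and no step between neighbours was larger than its SD.

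Of the 5 other EGF-like ligands, none had a median above 1 TPM. Egf, the ligand that gave the family its name, had 98, 111, 0 and 4 counts, and the neuregulin gene Nrg2 50, 61, 0 and 0 counts, in mice 1 to 4. Nrg4 had 1 count in mouse 2, and Epgn and Nrg3 had none. In mouse 2 the sum of these ligands was 2.65 TPM, whereas that of the 6 member ligands was 0.0186 TPM. In mouse 3 the relation was the opposite, with 0 and 3.71 TPM.

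Transcripts of the proteins that act on ligands and receptors were abundant. Of 9 genes of ligand shedding and maturation, 7 had a median above 1 TPM and 6 had more than 3 counts in every library. The median over these genes was 15.0 TPM, where that over all protein-coding genes was 0.135 TPM. For this and the later lists, the shares over all protein-coding genes were 44.2% for the median and 37% for the counts. Adam10, a main protease for EGF and betacellulin, was highest at 27.5 TPM ± 4.73 (SD, n = 4), and Rhbdf2, which brings ADAM17 to the cell surface, had the lowest median. Adam17, the main protease for HB-EGF, TGF-alpha and amphiregulin, was singled out after its values were seen. It had 1206, 3, 1148 and 670 counts, or 9.58, 0.0377, 9.29 and 9.06 TPM, in mice 1 to 4. Like Hbegf, it was close to absent in mouse 2 and present in the other 3 mice. Adam17 was among the 509 genes with at most 3 counts in mouse 2 and at least 100 counts in each other library.

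Receptor partners at the cell surface were found in every mouse, and all 6 genes of this list had a median above 1 TPM and more than 3 counts in every library (median over the list 102 TPM). Cd9, a tetraspanin that binds the HB-EGF precursor, was highest at 688 TPM ± 170 (SD, n = 4), and the hyaluronan receptor gene Cd44 lowest, with a median of 15.2 TPM. Of 14 adaptor genes, 13 had a median above 1 TPM and 12 more than 3 counts in every library (median over the list 13.3 TPM). Shc1, which links phosphorylated receptors to RAS, had the highest median with 26.5 TPM, and Eps8, an EGFR substrate, was the only adaptor under the cutoff with 0.109 TPM. All 10 RAS-MAPK genes passed both criteria, from Braf with a median of 2.30 TPM to the MEK gene Map2k2 with 61.0 TPM. Of 8 PI3K-AKT genes 7 passed the cutoff of 1 TPM and 6 the count criterion, with Akt1 highest at a median of 37.0 TPM. The catalytic subunit gene Pik3cb was listed at 0 in every library. The annotation used for counting was not analysed here, and whether reads of Pik3cb were lost to an overlapping gene model was not tested. These downstream genes serve many receptors, and their levels say nothing of the activity of ErbB receptors.

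Feedback and turnover genes were mostly present. Of the 20 matched genes of this list 17 had a median above 1 TPM and 14 more than 3 counts in every library (median over the list 3.95 TPM). Spry3 was not analysed here. Errfi1, which encodes the EGFR family inhibitor MIG6, was highest, with 112, 174, 198 and 101 TPM in mice 1 to 4 and a mean of 146 TPM ± 47.2 (SD, n = 4). Its level was between 7.09 times the receptor sum in mouse 2 and 43.7 times in mouse 3. The genes under the cutoff were Spry2, Dusp4 and Lrig1. Lrig1, which promotes the breakdown of ErbB receptors, had 38 counts in mouse 1 and 0 in the others, and Dusp4, a MAPK phosphatase, had 2 counts in mouse 3 alone. The feedback genes therefore ranged from levels far above the receptors to none detected.

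All 12 genes that respond early to growth factor signaling, and also to cell stress, had more than 3 counts in every library and a median above 1 TPM. The median over the list was 172 TPM, and the sum was 2562, 4202, 5955 and 2386 TPM in mice 1 to 4. Fos was highest, with a mean of 1619 TPM ± 526 (SD, n = 4), and Egr3 lowest, with a median of 3.04 TPM. The sum of the response genes was highest in mouse 3, whereas Egfr and Erbb2 were highest in mouse 2. Egr3 was highest in mouse 2 too, with 5.06 TPM against 3.35 TPM in mouse 3. Any relation between receptor and response gene levels was not tested.

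**Figure D4:**
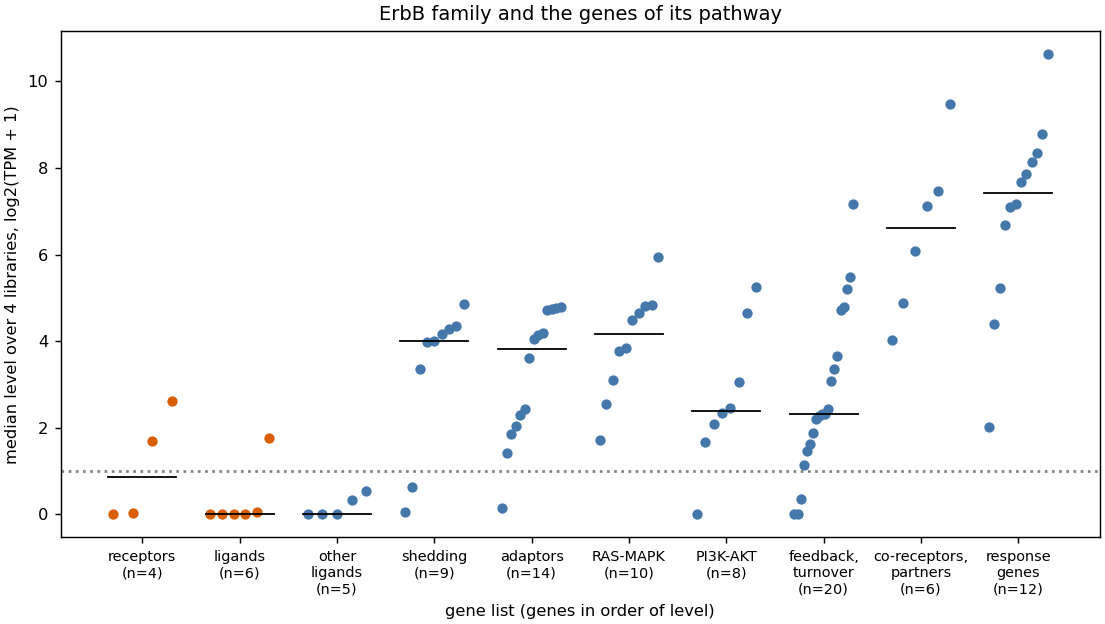
Median level over the 4 libraries, as log2(TPM + 1), of each gene of the receptors and member ligands (orange) and of the pathway lists (blue), in order of level within a list. Horizontal bars give the median of a list, the dotted line marks 1 TPM, and n is the number of genes. Ligands, member or not, lie below the line apart from Hbegf, while co-receptors and response genes lie highest. Of the other ligands, Nrg2 has a median of 0.453 TPM and Egf of 0.264 TPM.

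The protein-coding genes whose level ran most like that of Egfr over the 4 libraries, by Euclidean distance in log2(TPM + 1) among 21912 genes, were Ifi205 (0.51), Ing5 (0.54) and Rab23 (0.62). All 3 were highest in mouse 2 and lowest in mouse 1. For Hbegf they were AB124611 (0.17), Nfatc3 (0.19) and Mmaa (0.21), each lowest in mouse 2, with 0, 4 and 2 counts, and highest in mouse 4. With 4 libraries such likeness is a description of these samples.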

How the data were processed

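The authors sorted MSCs from 4 mice, made full-length cDNA by template switching, and deposited raw counts, 1 column per mouse and without normalization. Per their Supplementary Methods and processing notes, reads (bcl2fastq 2.20.0) were aligned to GRCm39 with STAR 2.7.10, and uniquely mapped pairs were counted on exons with featureCounts (Subread 1.6.5) with no strand option given. The main Methods name another pipeline for the same analysis, and the description specific to MSCs was taken to apply. No molecular identifiers are described, so that intervals and limits cover counting error only.

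TPM was computed with union exon lengths from GENCODE M21 on GRCm38, joined by gene identifier. These lengths cover 52125 genes and 96.1% to 98.2% of the counts of a library, and 4855 genes without a length were left out. Since the counts were made on GRCm39, a gene whose exons changed has a TPM off by the ratio of its lengths, and no coordinates were converted. Depth was such that 3 counts, taken as the limit of detection, equal 0.0689 to 0.132 CPM (counts scaled to a common library total). Shared exons came from the annotation, and near-identical transcripts from BLAST 2.17.0 (at least 95% identity over 100 bases). The latter covered 0.98% of the longest transcript of Egfr, 3.42% of Ereg, 2.63% of Tgfa and 1.85% of Nrg1, and none of the other members.

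Python 3.11.15, numpy 2.4.6, pandas 2.3.3 and scipy 1.17.1 were used, with edgeR 4.0.16 and DESeq2 1.42.0 (R 4.3.3) for scaling factors only. The TPM and sign-flip code was tested on simulated data. The genes named are the members, the highest and lowest gene of each pathway list by median and those at 0, the neighbours in rank, and the 3 genes most like Egfr and Hbegf. The sums of the erythroid and B cell marker lists are not reported here. The rule for the members uses no measured value, but it and the lists were drawn up with earlier results of these data known. Alternatives changed the length, the denominator, the scaling, the cutoff, the count minimum, the pseudocount, the summary over mice and the libraries. Mouse numbers are those of the sample titles.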

Additional observations from a re-analysis of the deposited data

Results flagged for a closer look

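In 16 of 71 values examined, 1 of the 4 libraries lay apart from the other 3 by more than Dixon's criterion at 95% allows. Chance flags about 1 in 20 groups of independent values, which gives no yardstick here. In 5 of the 16 the other libraries were all at 0, so that any count was set apart. Adam17 and Ing5 were named for their values, and Rhbdf2, Lrig1, Dusp4, Nrg4 and Ddr1 for a median or rank taken from the same values. Among the members, Tgfa stood out in mouse 1 with 3.71 TPM, while the other mice had 0 to 0.0803 TPM. Ereg at 0.0413 TPM in mouse 1 and Nrg1 at 0.0112 TPM in mouse 3 stood out only because the other libraries had 0 counts, and they rest on 3 and 2 counts. Of the pathway genes, Adam17 was low in mouse 2, with 0.0377 TPM where the other mice had 9.06 to 9.58 TPM. Rhbdf2 was high in mouse 3 at 2.07 TPM. Lrig1 in mouse 1 at 0.387 TPM, Dusp4 in mouse 3 at 0.0422 TPM and Nrg4 in mouse 2 at 0.0148 TPM rest on 38, 2 and 1 counts with 0 in all other libraries, and those of Dusp4 and Nrg4 are below the limit of 3 counts. The kinase gene Ddr1 was high in mouse 4 at 4.76 TPM, against 1.28 to 1.45 TPM, and Ing5, listed for its likeness to Egfr, in mouse 2 at 15.3 TPM, against 0.433 to 2.84 TPM.

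Marker sums stood out as well. Mouse 1 was high for chondrocyte (352 TPM) and megakaryocyte markers (7.95 TPM), and mouse 3 for macrophage markers (6.63 TPM), all of them counts of Cd68. Mouse 4 was high for Schwann and glia (2.40 TPM), epithelial (0.927 TPM) and smooth muscle markers (1.17 TPM). The smooth muscle sum was Myh11 alone, with Acta2, Tagln and Cnn1 at 0. What these libraries held beyond MSCs was not tested.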

How the results depend on the processing

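Of 239 changes of setting over all results, 1 reversed a direction and 8 moved a mean by more than its SD between mice or a number of members by over 1.5 times. The other 230 stayed within these bounds, which are wide: the mean of Tgfa without mouse 1 counts among them. The number of members with a median above 1 TPM was 1 when every mouse had to pass and 1 at a cutoff of 5 TPM, with Erbb2 kept each time. It was 2 with at least 10 counts required in every mouse, which loses Hbegf, and 3 without each mouse in turn. The number with more than 3 counts in every library was 4 at 1 count or more, adding Erbb3 and Hbegf, and 2 to 3 without each mouse in turn, adding Hbegf without mouse 2. In CPM, which uses no length, the means were 21.9 for Egfr, 13.0 for Erbb2, 0.0769 for Erbb3, 5.35 for Hbegf and 0.0117 for Nrg1, and Egfr minus Erbb2 was 0.20 (exact permutation p = 0.875) in place of -0.59. The construction of this unit, which favours long genes, accounts for that sign. Leaving out each mouse gave means of 1.68 to 5.89 TPM for Egfr, 3.96 to 7.20 for Erbb2, 1.59 to 3.41 for Hbegf and 0.0268 to 1.26 for Tgfa, and differences of -0.98 to -0.26 for Egfr minus Erbb2 and 0.33 to 1.61 for Hbegf minus Tgfa. Without mouse 2, an alternative chosen after seeing the data, the counts of genes above 1 TPM and above 3 counts in every library became 8 and 7 for shedding, 13 and 13 for adaptors, 7 and 7 for PI3K-AKT and 17 and 16 for feedback. No comparison between groups was possible because the series has 1 group, and the differences tested were between genes within a library. The depth does not resolve levels of Erbb4, Areg and Btc below the limits given, which cover counting error only.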
